A study of Rattus norvegicus with 16 samples.

Results

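Contrast-induced acute kidney injury (CI-AKI) is the loss of kidney function that can follow the injection of iodinated contrast medium. The arrays described here compare the microRNAs (miRNAs) of kidney with those of plasma in rats given contrast medium: 4 arrays titled as kidney and 4 titled as plasma of the CI-AKI group. Of the 350 rat miRNAs on the array, 181 entered the comparison because they were detected on all 4 arrays of at least 1 tissue. Male Sprague-Dawley rats were kept without water for 3 days and given furosemide, a loop diuretic, at 10 mg/kg into the muscle. Rats of the CI-AKI group then received the nonionic contrast medium Omnipaque (350 mg iodine/ml) at 10 ml/kg through the tail vein over 5 min. Controls received the same volume of saline after the same water deprivation and furosemide, so both groups carry that preparation. Blood and kidney were taken 8 h later. Each array held RNA pooled from 3 rats, with 4 pools per tissue and treatment and 16 arrays from 24 rats in all. Pooling averages the rats within an array, so the spread given here is between pools. The labels name neither the kidney region nor the single rats of a pool. If no rat entered more than 1 pool of a tissue, each rat gave both kidney and plasma. The tissue groups would then come from the same rats.

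A miRNA is a short RNA cut from a hairpin precursor. Its bases 2 to 8, the seed, pair with target messenger RNAs and lower their translation or stability, so miRNAs with the same seed are grouped as a family. Each hairpin can give a mature miRNA from either arm, and the rarer arm carries an asterisk in older names such as those on this array. Kidney tubule epithelium is known for miR-192, miR-194, miR-204 and the miR-200 and miR-30 families. Plasma carries miRNAs released from blood cells and from tissues such as liver and muscle, bound to proteins or enclosed in vesicles.

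The mature sequences that carry the main contrasts are printed below with the seed in capitals. They come from RefSeq (rat build GRCr8), in which 154 of the 181 miRNAs were matched by name. miR-192 and miR-215 share a seed, as do miR-23a and miR-23b, and the members of both pairs differed from plasma in opposite directions. The 3 miR-196 members, let-7e and let-7f were among the miRNAs higher in kidney, and miR-451, miR-144, miR-223 and miR-142-5p were lower in kidney. let-7d and let-7d*, miR-125a-5p and miR-125a-3p, and miR-30c and miR-30c-1* are arm pairs of 1 hairpin whose arms went opposite ways. miR-327 was the miRNA whose tissue difference differed between contrast medium and saline.
miR-192: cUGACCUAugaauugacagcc
miR-215: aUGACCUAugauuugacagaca
miR-23a: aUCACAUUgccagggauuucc
miR-23b: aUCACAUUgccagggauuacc
miR-196a: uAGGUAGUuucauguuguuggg
miR-196b: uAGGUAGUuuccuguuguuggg
miR-196c: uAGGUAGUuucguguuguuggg
let-7e: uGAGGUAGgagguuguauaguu
let-7f: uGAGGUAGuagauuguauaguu
miR-451: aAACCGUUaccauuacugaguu
miR-144: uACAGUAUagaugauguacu
miR-223: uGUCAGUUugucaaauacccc
miR-142-5p: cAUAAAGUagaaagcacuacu
let-7d: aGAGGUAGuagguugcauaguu
let-7d*: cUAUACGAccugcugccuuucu
miR-125a-5p: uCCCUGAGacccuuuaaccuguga
miR-125a-3p: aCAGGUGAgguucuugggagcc
miR-30c: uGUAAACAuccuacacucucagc
miR-30c-1*: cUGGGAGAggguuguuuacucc
miR-327: cCUUGAGGggcaugagggu

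All plasma arrays lay on slide 1 and all kidney arrays on slide 2, so tissue and slide cannot be told apart in any value below. The arrays also differed in how much signal they gave. Kidney arrays detected 174 to 216 miRNAs and plasma pools 1 to 3 at least 156, while plasma pool 4 detected 95. Its signal before scaling was also the lowest, 5.49 as the log2 75th percentile over 84 miRNAs detected on all 8 arrays, against 7.84 to 9.64 in the other plasma pools and 9.36 to 10.42 in kidney. By an exact two-sided permutation test, for which the smallest possible p is 0.0286, neither the number detected (36 more in kidney, p = 0.257, and 13.4 more without plasma pool 4) nor the log2 signal (2.12 higher in kidney, p = 0.0571) passed the 0.05 threshold. The letter codes in the sample descriptions did not follow the titles: 6 of 8 letters stood for opposite treatments in the 2 tissues, and the titles were used. Set against the tissue labels, tubule miR-192 and erythroid miR-451 were detected on all 8 arrays and liver-specific miR-122 on all 4 plasma arrays and no kidney array. Some markers went the other way: tubule miR-215 was detected on 4 plasma arrays and no kidney array, and muscle miR-499 on 4 kidney arrays and no plasma array. These detection calls also decided which miRNAs entered, so they are a description.

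After contrast medium, most of the measured miRNAs differed between kidney and plasma. A scaled signal is the background-corrected intensity divided by the array's 75th percentile over the 84 shared miRNAs. Differences are given as log2 of kidney over plasma with their SE, from limma over 181 miRNAs, 4 pools against 4. At an adjusted p below 0.05, 132 miRNAs (72.9%) passed: 52 (28.7%) were higher and 80 (44.2%) lower in kidney, with a median difference of -0.53 over all 181. These shares are the ones to set beside the group counts below. For 131 miRNAs (72.4%) the kidney and plasma pools did not overlap. Plasma pools varied more than kidney pools, with a median SD of 0.61 on the log2 scale against 0.15. Of the 84 miRNAs detected on all 8 arrays, 65 (77.4%) passed, 19 higher and 46 lower in kidney.

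The balance between higher and lower calls depended on how the arrays were scaled. It was 77 higher to 59 lower when scaled to the 75th percentile of all miRNAs, 82 to 57 with median scaling, 67 to 62 with the labelling spike-in control, 76 to 50 after quantile normalization, 74 to 46 in the authors' deposited table and 68 to 15 with no scaling. These scalings moved the median difference up by 0.54 to 2.03. All 52 miRNAs called higher in kidney kept that direction in all 6 of them, while 38 of the 80 called lower turned in at least 1, 37 with no scaling and 14 in another. Since all 6 moved the median difference towards kidney, mainly the lower calls had room to turn. The comparison therefore hardly tests the higher calls. Without plasma pool 4, 195 miRNAs entered, and 63 were higher and 91 lower. Normexp, a model-based background correction that adds an offset of 50 to each spot before scaling, gave 8 higher and 56 lower. It turned the sign of many dim miRNAs that were called higher in kidney, which are named with their groups below.

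**Figure D1:**
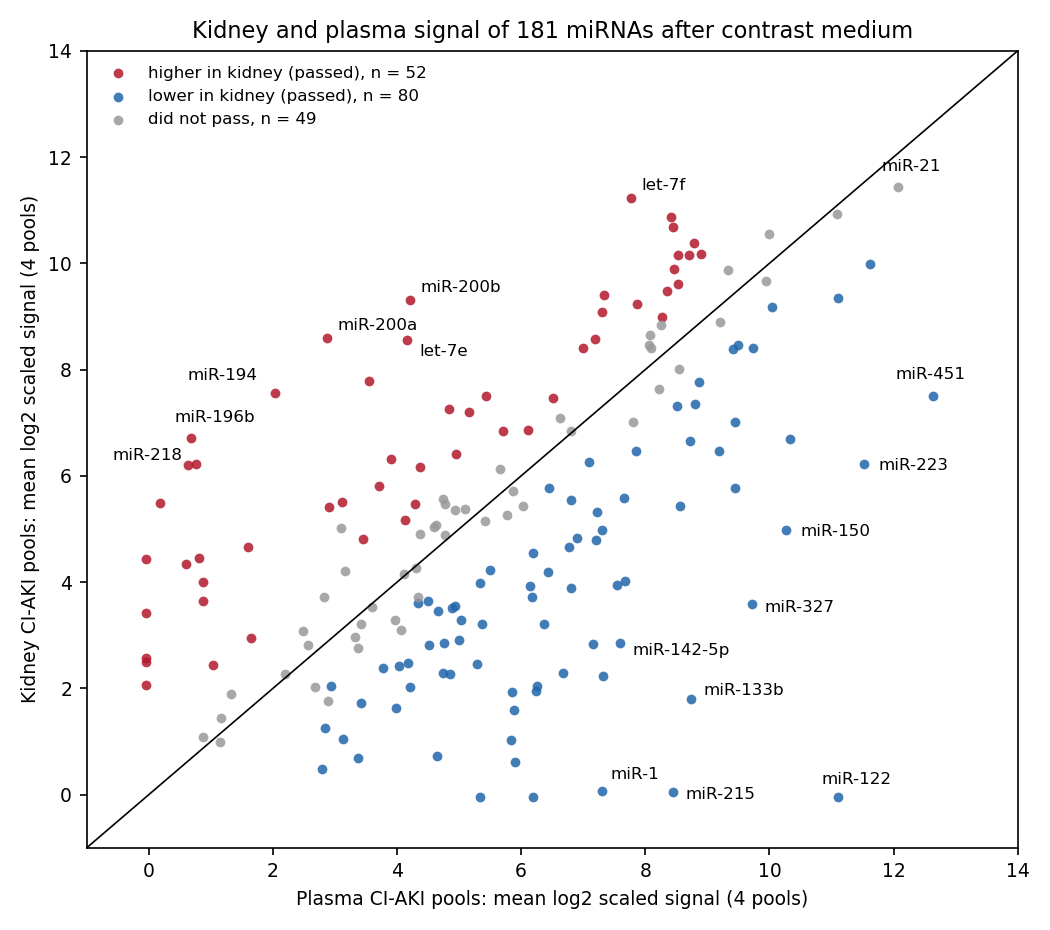
Mean log2 scaled signal of 181 miRNAs in 4 kidney pools (vertical axis) against 4 plasma pools (horizontal axis) after contrast medium, coloured by call. The 52 miRNAs called higher in kidney reached a difference of 6.03 (miR-196b), and the 80 called lower reached -11.15 (miR-122). miRNAs that did not pass lie on both sides of the line. Values near 0 lie at the floor for dim signals.

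The miR-200 family, which keeps epithelial cells epithelial by repressing the transcription factors Zeb1 and Zeb2, was higher in kidney in 4 of 5 members, with a median of 4.23. In kidney pools 1 to 4, miR-200b had a scaled signal of 578, 683, 636 and 629, and in plasma 15.6, 20.1, 26.6 and 14.2. All kidney pools lay far above all plasma pools (5.09 ± 0.24, adjusted p = 1.25e-07), although plasma pool 4 did not detect it. miR-200a, from the same genomic cluster in mammals as miR-200b and miR-429, stood at 401, 381, 390.0 and 365 in kidney against 6.69, 15.1, 18.3 and 1.57 in plasma (5.71 ± 0.67, adjusted p = 3.3e-05). In plasma pools 1 and 4, miR-200a lay below the lowest detected signal of the array, 7.37 and 38.2. Without plasma pool 4 its difference was 5.09. miR-429 had a difference of 4.23 ± 0.39. Of the family's 5 members, 0 were detected on all 8 arrays. The other genomic cluster of the family divided. miR-200c was higher in kidney (2.42 ± 0.25), from 64.4 to 95.5 against 10.4 to 19.9, except under normexp. Its neighbour miR-141, at chr4:159209540-159209561, did not pass, with 17.2, 21, 18 and 15.2 in kidney and 27.9, 8.17, 21.7 and 17.7 in plasma (0.04 ± 0.36, adjusted p = 0.909). In pooled tissue RNA, fewer cells of a type and less miRNA per cell cannot be told apart.

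The miRNAs encoded within the Hox clusters, the genes that set body-axis position, were higher in kidney in 5 of 5 members, with a median of 3.12. miR-196b had a difference of 6.03 ± 0.38 (adjusted p = 4.47e-07), above that of the other 180 miRNAs, though with no scaling it was 6.66 and miR-200b reached 7.14. Its kidney pools lay close together at 104, 106.6, 106 and 102, and its plasma pools near the floor at -1.27, 2.81, 2.49 and -4.22 after background subtraction, with detection on 1 of 4 plasma arrays. miR-196a was at 71.9, 83.7, 69.2 and 76.5 in kidney and was detected on no plasma array, so it was at least 12.7-fold higher in kidney. miR-196c was at least 3.22-fold higher, but 1 of its probes went the other way by more than 0.5. miR-10b, which lies within the span of the RefSeq gene Hoxd4 at chr3:80035886-80035907, was detected on all 8 arrays: 653, 728, 635 and 688 in kidney and 156, 126, 165 and 213 in plasma (2.06 ± 0.22). The difference of miR-10a-5p was smaller, 1.28 ± 0.28. Under normexp, miR-196a, miR-196b and miR-196c turned and the 2 miR-10 members did not.

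Among the 4 miRNAs of tubule epithelium that entered, of 5 on the array, 2 were higher, 1 lower and 1 did not pass. miR-194 stood at 219, 177, 189 and 174 in kidney against 3.76, 12.3, 6.15 and 0.6 in plasma (5.53 ± 0.65, adjusted p = 3.3e-05). In plasma pools 1 and 4, miR-194 lay below the lowest detected signal of the array, 7.37 and 38.2. Without plasma pool 4 its difference was 4.97. miR-192, the partner of miR-194 at chr1:212994038-212994252, showed a much smaller difference. It was 698, 701, 734 and 708 in kidney and 192, 554, 376 and 286 in plasma, a difference of 1.12 ± 0.31 (adjusted p = 0.0088). miR-215 carries the same seed as miR-192 and lies beside a second copy of miR-194 at chr13:99382730-99383024, within the span of Iars2. It went the other way: no kidney array detected it, and plasma pools read 179, 237, 435 and 791, so it was at least 311-fold higher in plasma. miR-204, a miRNA of tubule and eye epithelium, did not pass (0.44 ± 0.37, adjusted p = 0.291), with kidney pools at 36.2 to 45.2 inside the plasma range of 16.1 to 61.2.

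The cluster of miR-96, miR-182 and miR-183, known from sensory organs, was higher in kidney in 3 of 3 members. All of them were detected on 4 kidney arrays and no plasma array. miR-96 read 33.9, 55.4, 37.4 and 59.1 in kidney and was at least 9.84-fold higher there. miR-183 was at least 3.19-fold higher. For miR-182 the groups overlapped, the bound was 1.04-fold and its probes disagreed, so its call (1.41 ± 0.55, adjusted p = 0.0418) is the weakest of the cluster. It did not pass when any 1 kidney pool or any 1 of plasma pools 1 to 3 was left out, and was 2.34 without plasma pool 4. In the same detection pattern, miR-218, which lies within the spans of the axon guidance genes Slit2 and Slit3, was at least 11.5-fold higher in kidney (84.1, 68.6, 70.7 and 74.1) and miR-135a at least 4.74-fold. miR-9, a miRNA of neural progenitors, was at least 2.33-fold higher, its other arm miR-9* at least 1.23-fold, miR-672 at least 1.65-fold and miR-333, named miR-333_v11.0 on the array, at least 1.29-fold. Of the miRNAs in this paragraph, all turned under normexp.

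The let-7 family, which marks differentiated cells and represses growth genes such as Hmga2 and Ras, was higher in kidney in 7 of 8 members, with a median of 1.79. let-7f was at 2354, 2542, 2169 and 2494 in kidney and 216, 223, 106 and 444 in plasma (3.45 ± 0.38, adjusted p = 2.23e-05). let-7e read 339.8, 430.4, 369 and 377 against 18.3, 33.1, 10.6 and 15.9 (4.40 ± 0.33). The kidney pools exceeded all plasma pools for both. In plasma pool 4, let-7e lay below the array's lowest detected signal of 38.2, and without that pool its difference was 4.47. Members with the same seed differed widely: let-7a reached 2.47, miR-98 1.80 (turning under normexp), let-7d 1.78, let-7b 1.63 and let-7c 1.59. let-7i did not pass, with 236 to 274 in kidney against 266 to 482 in plasma (-0.53 ± 0.23, adjusted p = 0.0585).

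The genes neighbouring let-7 members followed in part. In the cluster at chr1:67350070-67350748, miR-99b (2.40 ± 0.33) and miR-125a-5p (2.07 ± 0.51) were higher in kidney together with let-7e. Over the miR-99/100 and miR-125 families, 4 of 5 members were higher, with a median of 1.36, among them miR-100 (1.36 ± 0.26) and miR-99a (0.94 ± 0.31). Kidney and plasma pools of miR-99a touched, at 169 in kidney pool 1 and in plasma pool 2. miR-99a, miR-99b, miR-100 and miR-125a-5p turned under normexp.

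The miR-30 family, described as protective of podocytes and tubule cells, was mixed: 2 members were higher, 1 lower and 2 did not pass. miR-30c was at 1569, 1699.8, 1698 and 1582 in kidney and 275, 511, 342 and 314 in plasma (2.22 ± 0.23, adjusted p = 1.65e-05). miR-30a was higher by less (1.08 ± 0.36), with 741 to 809 against 167 to 537. miR-30d was lower in kidney (-1.03 ± 0.30, adjusted p = 0.0105), except with no scaling, where it was higher. miR-30b-5p and miR-30e overlapped between the tissues, with differences of 0.40 ± 0.29 and 0.33 ± 0.26. The family's median of 0.40 thus hides members that went both ways.

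Smaller families that passed in kidney's favour included miR-29, which represses collagens, and the pair miR-103 and miR-107, which lie in pantothenate kinase genes. miR-29b was at 989, 864, 1028 and 918 in kidney and 241, 373, 420.5 and 411 in plasma (1.43 ± 0.23). miR-29c was higher by 0.74 ± 0.27, a call that was lost with the replicate number as a block (adjusted p = 0.0592), when any 1 kidney pool was left out (0.0633 to 0.0757) and without plasma pool 1 (0.0722). miR-29a overlapped (-0.27 ± 0.22) and turned in 4 of the 6 scalings. miR-103 (2.04 ± 0.22) and miR-107 (1.41 ± 0.25) both passed. miR-181a was the single called member of 4 in its family (1.46 ± 0.23). Under normexp, miR-103 and miR-181a turned. Neither miR-26a (0.56 ± 0.27, adjusted p = 0.08) nor miR-26b (0.54 ± 0.31, adjusted p = 0.143) passed, though both did without plasma pool 4.

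Blood-cell miRNAs were mostly lower in kidney. Of the 3 erythroid miRNAs, all were lower, with a median of -4.37. miR-451, which red cells mature through Argonaute 2 without Dicer, was at 177, 199, 172 and 179 in kidney and 3110.4, 4753, 8452 and 13148 in plasma. Every plasma pool was above every kidney pool (-5.13 ± 0.41, adjusted p = 2.23e-06), and the plasma pools themselves spanned more than the kidney pools. miR-144, transcribed with miR-451 at chr10:63459446-63459606, read 5.98, 5.3, 4.53 and 4.03 against 58, 77.4, 204 and 117 (-4.37 ± 0.37). miR-16, also found in many other cells, was lower by less (-1.76 ± 0.29), and was higher with no scaling.

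Of 5 leukocyte miRNAs, 4 were lower in kidney, with a median of -4.73. miR-223, of neutrophils, monocytes and platelets, was at 66, 72.9, 87.6 and 74.1 in kidney and 1145, 2797, 4936 and 4642 in plasma (-5.29 ± 0.43, adjusted p = 2.7e-06). miR-150, of mature lymphocytes, read 29.2, 35.1, 30.7 and 32.2 against 1437, 629, 1298 and 1922 (-5.27 ± 0.33). No pools of the tissues overlapped for either. miR-146a, a feedback regulator of inflammatory signalling, was lower by less (-1.10 ± 0.34, adjusted p = 0.0158), did not pass without plasma pool 4 (adjusted p = 0.0590), and was higher with no scaling. The 2 arms of miR-142, a hairpin used throughout blood-forming cells, parted. miR-142-5p was 9.87, 6.17, 6.52 and 6.94 in kidney and 177, 115, 277 and 243 in plasma (-4.73 ± 0.31), whereas miR-142-3p overlapped at 138, 112, 143 and 129 against 135, 142, 310.2 and 425 (-0.79 ± 0.38, adjusted p = 0.0827). Of 4 platelet miRNAs on the array 3 entered, of which miR-223 and miR-150 recur here. The remaining member, miR-126, which is also the main endothelial miRNA and lies in Egfl7, was higher in kidney (1.37 ± 0.19).

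**Figure D2:**
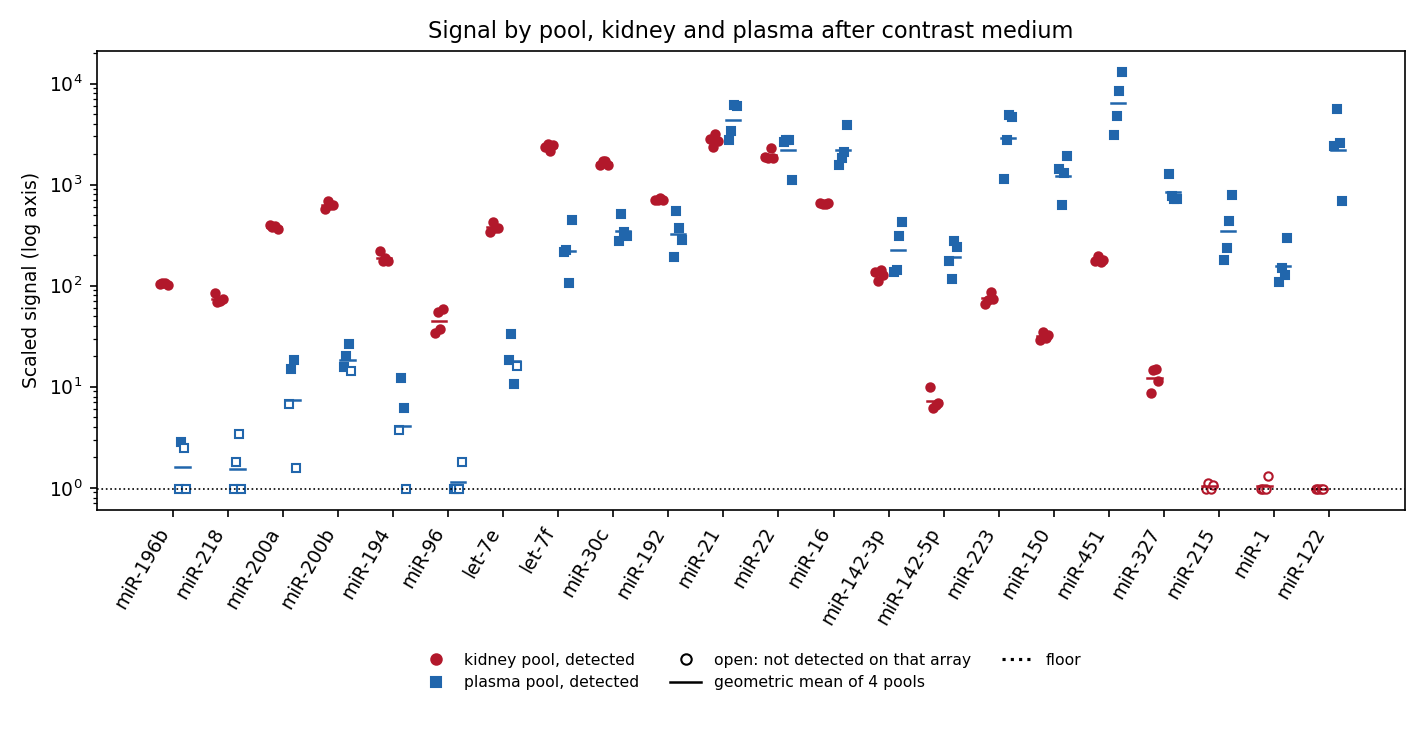
Scaled signal of 22 miRNAs on a log axis, 1 point per pool, with kidney pools as circles and plasma pools as squares. Open symbols mark arrays on which the miRNA was not detected, horizontal bars the geometric mean of 4 pools and the dotted line the floor of 0.971. Kidney pools of miR-196b lie between 102 and 106.6 while its plasma pools reach at most 2.81, and the order is turned from miR-142-5p to miR-122.

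miRNAs of other organs were among those with the largest differences in plasma's favour. miR-122, which makes up most of the miRNA of hepatocytes, was at 2392, 5664, 2573 and 689 in plasma and was detected on no kidney array. It was at least 2103-fold higher in plasma (fitted difference -11.15 ± 0.53). The liver group had 3 members, and the other 2, miR-192 and miR-194, were higher in kidney, as described above with the tubule miRNAs. Next in plasma's favour came tubule miR-215 (-8.39), then miR-1 and miR-133b, of heart and skeletal muscle. miR-1 was at 109.7, 149.7, 129 and 296 in plasma, at least 139-fold above kidney, where no array detected it. miR-133b read 357, 828, 424 and 258 in plasma against 2.82, 3.29, 3.04 and 5.22 in kidney (-6.93 ± 0.37), with detection on 3 kidney arrays. Of 6 muscle miRNAs on the array, 3 entered. The third, miR-499 from the slow myosin gene Myh7b, did the opposite: 26.2, 22.8, 16.7 and 23.1 in kidney and no detection in plasma. It was at least 3-fold higher in kidney, except under normexp. Of 7 neural miRNAs on the array 3 entered, of which miR-128 was lower in kidney (-3.16 ± 0.23) and miR-9 higher.

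Of the miR-17-92 cluster and its paralogs, which drive proliferation, 9 of 11 members on the array entered. All 9 were lower in kidney, with a median of -2.11. miR-92a was at 92.4, 109, 105.5 and 106 in kidney and 1107, 887, 1618 and 1759 in plasma (-3.65 ± 0.26, adjusted p = 9.57e-07). miR-19a (-3.61 ± 0.28), miR-25 (-3.12 ± 0.20) and miR-19b (-2.43 ± 0.26) kept their direction in all 6 other scalings. The 4 members with the seed AAAGUGC lay within 0.04 of each other on the log2 scale, miR-93 at -2.11, miR-106b at -2.08 and miR-17-5p and miR-20a at -2.07, and each turned with no scaling. miR-363 (-1.38 ± 0.35) also turned in at least 1 scaling. Since 5 members lie in 1 cluster at chr15:98587861-98588622 and 3 others in Mcm7 at chr12:22156652-22157123, they are not independent measurements.

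Families shared by many cell types were lower in part. In the miR-15/16 seed family, miR-16, miR-15b (-1.46 ± 0.48) and miR-497 (-1.38 ± 0.38) were lower in kidney, though all 3 were higher with no scaling. miR-15b was -0.81 without plasma pool 4 and did not pass without kidney pool 3 (adjusted p = 0.0564). In the same family miR-195 (0.05 ± 0.31) and miR-322 (0.83 ± 0.35, adjusted p = 0.0552) did not pass. The miR-23/27/24 clusters parted by genomic copy. At chr19:40859481-40859798, miR-23a was at 977, 1178, 928 and 984 in kidney against 2634, 3269.6, 3196 and 3540.2 in plasma (-1.63 ± 0.20, adjusted p = 4.47e-05), and miR-27a was lower too (-1.34 ± 0.28), both higher with no scaling. At chr17:1818672-1819425, miR-23b was higher: 1110.4, 1189.5, 1191 and 1068 against 351, 445, 424 and 465 (1.44 ± 0.19, adjusted p = 8.37e-05). miR-27b overlapped (0.57 ± 0.25, adjusted p = 0.0648), and miR-24, which both loci encode, was lower (-0.86 ± 0.18) but higher with median scaling and no scaling. miR-23a and miR-23b are near-identical in sequence, so a probe for one could take up some of the other, and this was not tested.

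Of 5 stromal and smooth muscle miRNAs, 3 were lower in kidney, with a median of -1.02. Over all 181 miRNAs 44.2% were lower, with a median of -0.53. The group's median ran from -0.90 to 1.10 over the other scalings, and 1 of its calls kept its direction in all of them. miR-145, of contractile smooth muscle, was at 17.6, 15, 11.1 and 16.5 in kidney and 288, 253, 103 and 21 in plasma (-2.92 ± 0.73, adjusted p = 0.00475), a spread set by plasma pool 4, which did not detect it. miR-143 (-1.02 ± 0.38) and miR-214 (-1.90 ± 0.31) were higher with no scaling, and miR-143 did not pass when any 1 of pools 1 to 3 of either tissue was left out (adjusted p from 0.0521 to 0.0833). miR-199a-3p (-0.58 ± 0.26) and miR-199a-5p (0.71 ± 0.54) did not pass. Among 4 endothelial miRNAs, miR-222 was lower (-1.75 ± 0.33), again except with no scaling, while miR-221 (-0.59 ± 0.26) and miR-126* (-0.16 ± 0.30) overlapped. Of 35 miRNAs on the array that were listed for the Dlk1-Dio3 cluster, an imprinted locus, 3 entered the comparison. miR-300-5p was not on that list but lies beside miR-379 and miR-494 at chr6:134559923-134559944. It had the largest difference of the 4, detected on all plasma arrays and no kidney array and at least 69.8-fold higher in plasma. miR-494 was lower in kidney (-2.46 ± 0.30), and miR-409-3p was also called (-2.08 ± 0.82, adjusted p = 0.0422) but not without plasma pool 4 (-1.08, adjusted p = 0.0751) or plasma pool 1, nor when any 1 kidney pool was left out. Plasma pool 4 read 199 against 9.83 to 32.5 in the other plasma pools.

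**Figure D3:**
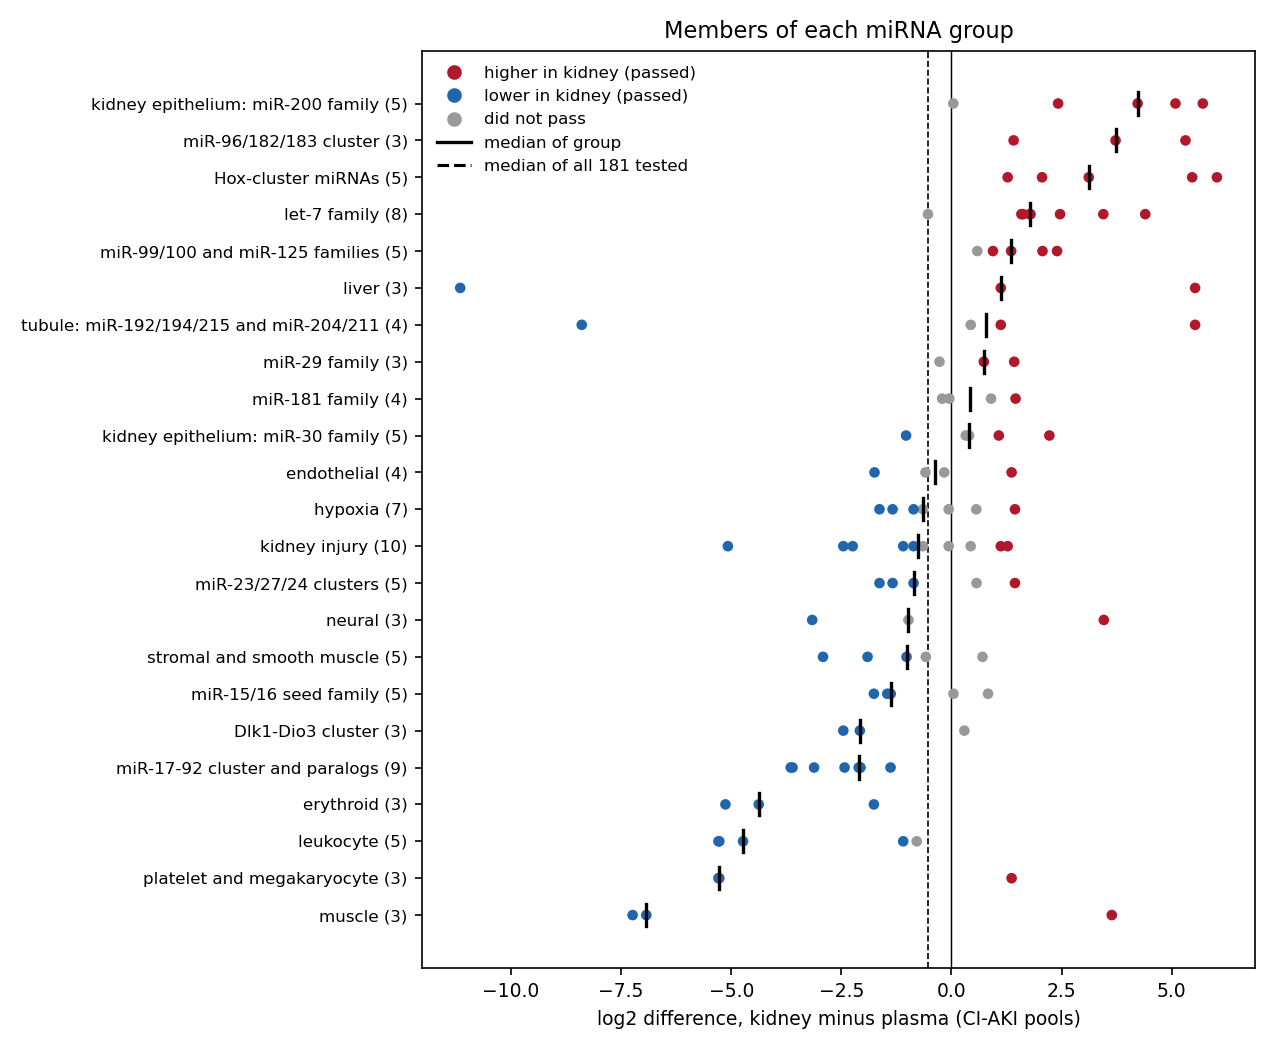
Log2 difference, kidney minus plasma, of each measured member (points, coloured by call) for groups with 3 or more members, with the group median as a bar and the median of all 181 miRNAs (-0.53) as a dashed line. Numbers in parentheses count the members. The miR-200 family has the highest median (4.23) and the muscle group the lowest (-6.93), and most groups between them hold members on both sides of 0.

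Of 11 miRNAs on the array linked to kidney injury, 10 entered. Of these, 2 were higher in kidney, 5 lower and 3 did not pass, with a median of -0.75. Over all 181 miRNAs 28.7% were higher and 44.2% lower, with a median of -0.53, so this balance is near that of all miRNAs. miR-21, induced in many injured tissues, was at 2825, 2380.3, 3176 and 2731 in kidney and 2794, 3389, 6113 and 6045 in plasma. The tissues overlapped (-0.65 ± 0.30, adjusted p = 0.0738), and 5 of the 6 other scalings put kidney higher. miR-188 was lower in kidney, at 3.66, 3.63, 9.46 and 3.99 against 179, 139, 184 and 142 (-5.08 ± 0.33, adjusted p = 5.4e-07). miR-320 was lower as well (-2.24 ± 0.34). miR-24, miR-146a and miR-494 are described above, as are miR-192 and miR-10a-5p, the 2 that were higher. miR-34a, a p53 target, did not pass (0.44 ± 0.25). miR-210, the main miRNA induced by low oxygen, was near equal, at 9.73, 12.6, 13.6 and 10.9 in kidney and 8.36, 13.5, 20.1 and 9.44 in plasma (-0.06 ± 0.30, adjusted p = 0.848), and was higher in kidney in each of the 6 other scalings. In the 7 miRNAs of the hypoxia group, 1 was higher and 3 were lower, the latter being miR-23a, miR-24 and miR-27a, again near the 28.7% and 44.2% over all 181.

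Several further miRNAs lay far below plasma. miR-291a-5p, the 1 member of the miR-290 cluster that entered, was detected on all plasma arrays and no kidney array and was at least 38.6-fold higher in plasma. miR-423 (39.9, 79.8, 66.8 and 58.6 in plasma) was detected on 1 kidney array, with a difference of -5.27 ± 0.29. miR-130b reached -4.80 ± 0.42 with detection on 2 kidney arrays, although miR-130a, with the same seed, overlapped at 476, 485, 508 and 442 against 640.1, 933, 664 and 301 (-0.30 ± 0.33). miR-466b (-4.29 ± 0.28), miR-874 (-4.28 ± 0.24) and miR-335 (-4.21 ± 0.40) were also lower in kidney. At the other end, miR-22 was about level, at 1877, 1843, 2296 and 1823 in kidney against 2658, 2798, 2745 and 1117 in plasma (-0.16 ± 0.32, adjusted p = 0.652).

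The 2 arms of a hairpin are cut from 1 precursor in equal number. For a miRNA encoded at 1 locus, a difference between them is therefore measured within 1 transcript. This does not hold for guide arms encoded at several loci, such as miR-30c, miR-24, miR-9 and miR-7a, whose signal sums over several transcripts. Among 26 arm pairs with 25 guide arms, both arms were called in the same direction in 9, in opposite directions in 4, and in 13 an arm did not pass. In all 4 opposite pairs the usual guide arm was higher and its partner lower in kidney. Among them, only let-7d and let-7d* were both detected on all 8 arrays. let-7d was at 514, 592, 515 and 547 in kidney and 122, 189, 140.0 and 193 in plasma (1.78 ± 0.22), while let-7d* was at 6.7, 7.57, 7.38 and 6.91 against 103, 169, 220.2 and 108 (-4.32 ± 0.28). miR-125a-5p (2.07 ± 0.51) and miR-125a-3p (-3.91 ± 0.23) behaved likewise, with the latter at 3.76, 4.63, 3.67 and 3.39 in kidney and 71.9, 43.6, 55.3 and 63.2 in plasma. For miR-30c, made from 2 loci, the partner miR-30c-1* of the locus within Nfyc at chr5:139634467-139634488 was lower (2.14, 2.17, 1.38 and 1.18 against 48.5, 20.6, 26 and 15.2, a difference of -3.92 ± 0.38). miR-151 (2.43 ± 0.27) and miR-151* (-2.08 ± 0.36) formed the fourth pair, of which miR-151* turned with no scaling and in the authors' deposited table. Under normexp, miR-125a-5p and miR-151 turned. miR-125a-3p and miR-151 were named here after their values were seen.

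Over all 26 pairs the first-named arm had the higher difference in 18 and the lower in 8. For miR-140* (-2.72 ± 0.22) the partner lay further below plasma than the guide arm, and for miR-322* (-2.17 ± 0.20) it was lower in kidney while miR-322 (0.83) did not pass. The arms of miR-30a were close, at 1.08 for the guide and 1.13 ± 0.21 for miR-30a*, which turned under normexp. Of the 8 pairs that ran the other way, miR-142, described above, and miR-29c had the widest gaps: miR-29c* (3.08 ± 0.56) exceeded miR-29c, with detection on 1 plasma array and a turn under normexp.

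**Figure D4:**
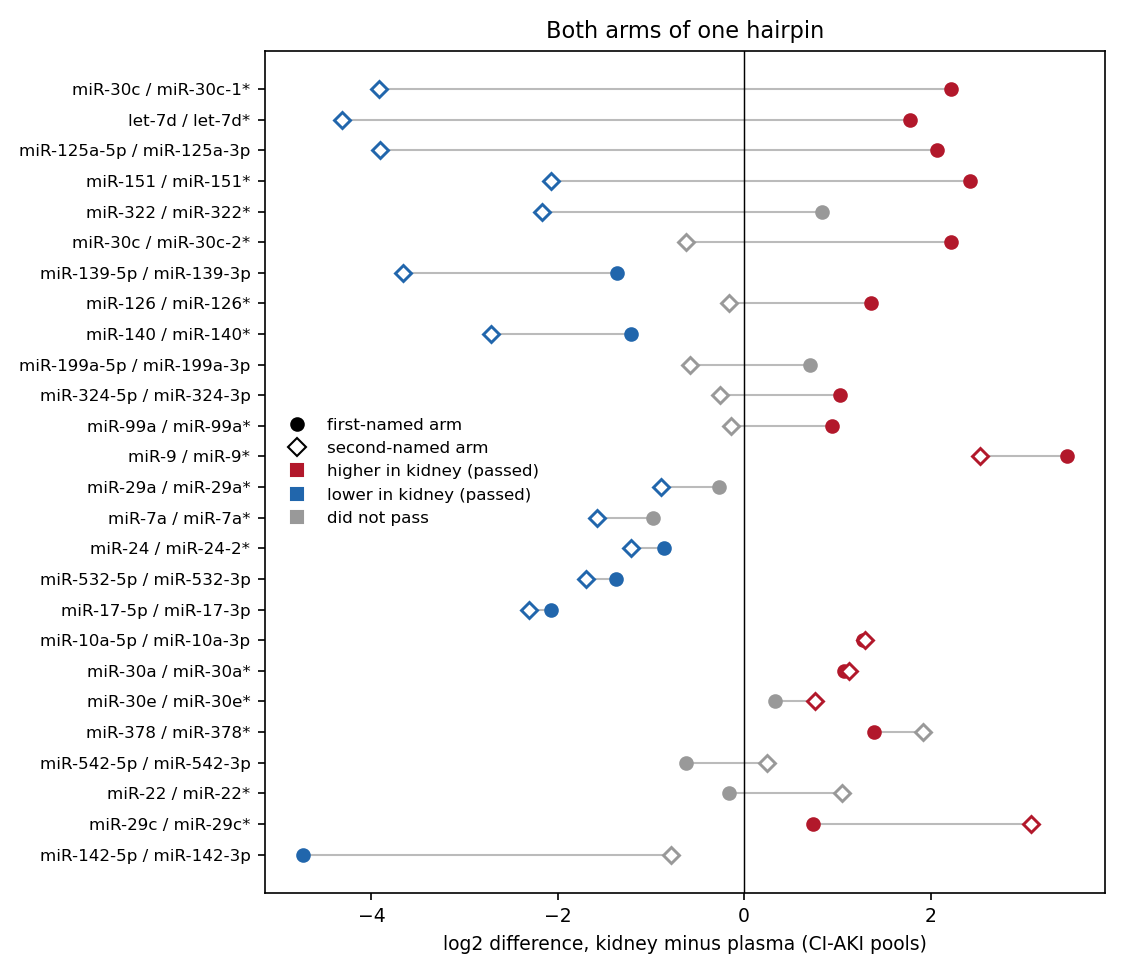
Log2 difference, kidney minus plasma, for both arms of 26 pairs; filled circles mark the first-named arm, open diamonds the second, and colours the call. The pairs miR-30c, let-7d, miR-125a and miR-151 straddle 0 with both arms called, of which miR-151* turned with no scaling and in the authors' deposited table; miR-142 runs the other way, from -4.73 for miR-142-5p to -0.79 for miR-142-3p.

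Grouped by seed, 64 of the matched miRNAs fell into 23 families of 2 or more. In 3 families all members were higher in kidney and in 3 all were lower, and 2 families held calls in both directions: UGACCUA with miR-192 (1.12) and miR-215 (-8.39), and UCACAUU with miR-23b (1.44) and miR-23a (-1.63, turning with no scaling). This grouping left out miRNAs without a matched sequence, so its counts are incomplete. One left out was miR-30d (-1.03), called lower while miR-30a and miR-30c of its family were called higher. Grouped by position, 43 clusters of miRNAs starting within 10 kb of each other on 1 strand were found, with 11 wholly higher, 10 wholly lower and 6 with calls in both directions. Some miRNAs are encoded in several clusters and arms of 1 hairpin count as neighbours, so these groups overlap.

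The tissue difference after contrast medium was set beside that after saline to see whether it depended on the treatment. In saline rats 178 miRNAs were tested and 137 (77.0%) differed. Of the 128 contrast calls that were also tested in saline rats, 120 were called in the same direction (52 higher and 68 lower), 0 in the opposite direction and 8 did not pass. The saline and contrast plasma arrays shared a slide, and so did the kidney arrays. The difference between the 2 tissue differences was tested in 1 model over all 16 arrays. Of 174 miRNAs, 1 (0.575%) passed, miR-327, and 6 had an unadjusted p below 0.05.

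miR-327, a rat miRNA at chr20:13161137-13161155, was lower in kidney in both treatments but by less after contrast medium. After contrast medium it was at 8.62, 14.6, 14.8 and 11.4 in kidney and 1268, 775, 722 and 722 in plasma (-6.13 ± 0.28). After saline it was at 1.53, 1.19, 0.447 and 0.988 in kidney, where no array detected it, and 379, 522, 405 and 704 in plasma (-8.39 ± 0.20). Kidney arrays thus detected it in 4 of 4 pools after contrast medium and 0 of 4 after saline. These treatments are those of the titles, and the conflicting letter codes were not tried in the test below. The signals of the 2 treatments were scaled separately here and together in the test below. The interaction was 2.27 ± 0.36 on the log2 scale (adjusted p = 0.00248). It passed in 4 of the 6 other scalings, among them the authors' deposited table, with adjusted p from 7.14e-05 to 0.00735, but not after quantile normalization (adjusted p = 0.108) or with no scaling. Because the saline kidney signal was at the floor, the size of the interaction depends on that floor, and it was -0.93 with the highest floor and -0.52 under normexp, neither of which passed.

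**Figure D5:**
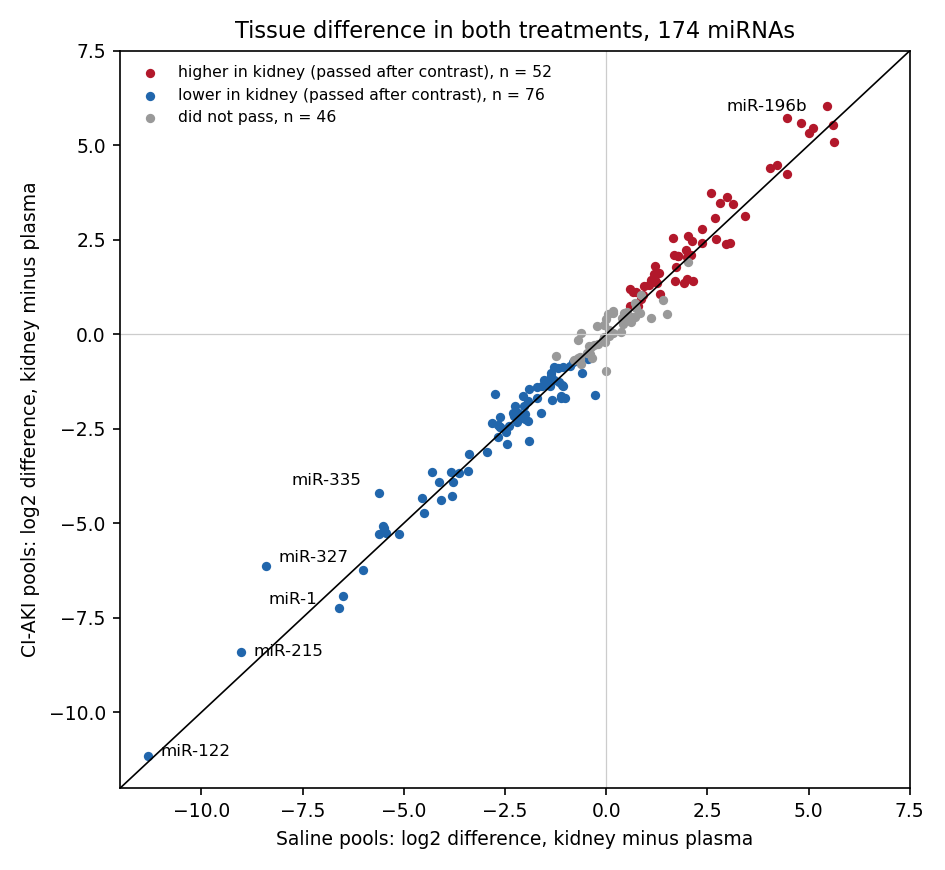
Log2 difference, kidney minus plasma, after contrast medium (vertical axis) against that after saline (horizontal axis) for 174 miRNAs tested in both, coloured by the call after contrast medium, with the line of equality. Most points lie near the line; miR-327 lies above it, at -6.13 against -8.39.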

How the data were processed

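Agilent 1-colour rat miRNA arrays measured 350 miRNAs with 938 probes on 7000 spots. A mirVana kit gave the total RNA, which was labelled, per the labels' protocols, with Agilent's miRNA kit; the labels name biotin as the label. Per the file headers, the scanner images were read as spot intensity by Agilent Feature Extraction 10.7.3.1, and the authors deposited its background-corrected processed signal, median signal, background and a detection call (coded 0 or 1) per miRNA. A second deposited file holds the authors' log2 values per array. They correlated at 0.916 to 0.999 with the scanner values of that array; every column had a median of 2.28 and nearly the same sorted values (largest gap 0.0478), as quantile normalization leaves them. How it was made is otherwise not stated; it was used as an alternative.

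Control spots and outliers were left out, and processed signals were averaged by probe and then by miRNA. Arrays were brought to a common 75th percentile, taken over miRNAs that every compared array detected (84 for the 8 contrast arrays, 65 for all 16). Before log2, lower values were raised to a floor of 0.971, each array's lowest detected signal as a median across arrays. The floor can understate differences of dim miRNAs. On plasma pool 4, however, the lowest detected scaled signal was 38.2, and undetected values below it entered down to the floor. Fitted differences of miRNAs higher in kidney can therefore be overstated. Probes of 6 of 179 miRNAs disagreed by more than 0.5 in both directions; 0 miRNAs were saturated. Where 1 tissue detected a miRNA on no array, a bound is given: the mean log2 signal of the other tissue less the mean, over the dim tissue's arrays, of the highest of the array's lowest detected signal, the floor and the miRNA's own.

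Tissues were compared with limma 3.58.1 (lmFit, eBayes) in R 4.3.3, adjusted by Benjamini-Hochberg over all miRNAs tested; single values per array with an exact permutation test. The alternatives were other scalings, background corrections, summaries, floors, filters and blocks, swapped letter codes and leaving out each pool. The number of arrays limits precision.

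The members, miRNA groups and named miRNAs were chosen with earlier results of these data known. Named are the 10 largest called differences each way among miRNAs detected on all 8 arrays, the 10 largest bounds each way, the 5 with the highest mean signal per tissue, the 5 smallest differences, up to 5 members of each group by p, the 10 smallest interaction p, 8 partner arms, 6 miRNAs of the series' other comparisons and the 3 largest differences each way among partly detected miRNAs; those near 0 are partly given as counts. Sequences and gene spans are RefSeq's (GRCr8); the array files name build rn4, whose coordinates were not used.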

Additional observations from a re-analysis of the deposited data

Results flagged for a closer look

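In the pools of 4, some values stood apart from the other 3 by more than the 95% critical value of Dixon's test. Chance alone gives this in about 1 in 20 groups tested. The number of values listed here was not compared with that rate, so the list is a description. In kidney, pool 3 was the pool apart for miR-188 (scaled signal 9.46), miR-672 (11.6), miR-22 (2296), miR-409-3p (14.7), miR-320 (32.2) and miR-98 (59.9), and the same array had the lowest kidney signal before scaling, a log2 75th percentile of 9.36 that itself stood apart. Kidney pool 4 stood apart for miR-1 (1.31) and miR-143 (405). In plasma, pool 4, the dim array, stood apart for miR-196a (-7.89), miR-22 (1117) and miR-409-3p (199), pool 1 for miR-327 (1268) and pool 3 for miR-466b (103.7). The part of array signal in these values was not tested. Without kidney pool 3, 129 miRNAs were called.

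The tissue difference of miR-327 differed between contrast medium and saline by 2.27 ± 0.36 on the log2 scale (adjusted p = 0.00248, limma interaction over 16 arrays).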

How the results depend on the processing

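In the contrast pools, the call count of 132 (52 higher, 80 lower) became 83 with 15 lower and no scaling, 64 with 8 higher under normexp, 80 with 45 lower at the highest floor, 67 (19 higher, 48 lower) over miRNAs detected on every array and 125 lower over those detected on at least 1 array. Median scaling gave 82 higher, quantile normalization 50 lower, with 46 lower in the authors' deposited table. Normexp without plasma pool 4, chosen after seeing the data, gave 66 (16 higher, 50 lower). The other alternatives, with slide row as a block, slide column as a block (also added, 132 calls), array weights, a mean-variance trend and all 4 groups in 1 fit among them, stayed within 1.5 times of each count. In the saline pools, 137 (59 higher, 78 lower) became 57 with 12 lower and no scaling, 73 with 16 higher under normexp, 85 (38 higher, 47 lower) at the highest floor and 56 (20 higher, 36 lower) for detection on every array. The interaction count of 1 became 0 with no scaling (0 miRNAs at an unadjusted p below 0.05), quantile normalization (7), normexp (0), the highest floor (7) and detection on every array (2, with miR-327 not among those tested), and was 1 to 2 with each pool left out, 2 without plasma pool 2. The log2 signal before scaling ranged from 1.30 to 2.69 with each pool left out, and passed without plasma pool 2. Taking plasma arrays by the letter codes of the kidney arrays gave 144 calls, and kidney arrays by those of plasma 136.

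Whether kidney and plasma pools with the same replicate number came from the same rats is not stated. Their deviations correlated at -0.033, 0.15, -0.055 and -0.10. These values cannot decide it, because kidney and plasma of the same rats need not deviate alike. With the replicate number as a block, 132 miRNAs were called (53 higher, 79 lower) in the contrast pools, 135 in the saline pools and 1 for the interaction.

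Signs turned in these cases, of which no cause was tested. With no scaling: miR-21 1.48, miR-22 1.96, miR-23a 0.49, miR-126* 1.96, miR-29a 1.85, miR-130a 1.82, miR-30d 1.09, miR-16 0.36, miR-146a 1.03, miR-142-3p 1.34, miR-222 0.38, miR-221 1.53, miR-214 0.22, miR-143 1.10, miR-199a-3p 1.54, miR-93 0.0186, miR-497 0.75, miR-15b 0.67, miR-27a 0.79, miR-24 1.26, miR-409-3p 0.0439, miR-210 1.84, miR-151* 0.0307, miR-17-5p 0.0509, miR-20a 0.0556, miR-106b 0.0453, let-7i 1.59 and miR-363 0.74. With median scaling: miR-21 0.24, miR-22 0.72, miR-126* 0.72, miR-29a 0.61, miR-130a 0.59, miR-142-3p 0.10, miR-221 0.30, miR-199a-3p 0.30, miR-24 0.0253, miR-210 0.82 and let-7i 0.35. With the 75th percentile of all miRNAs: miR-21 0.0826, miR-22 0.57, miR-126* 0.56, miR-29a 0.46, miR-130a 0.43, miR-221 0.14, miR-199a-3p 0.15, miR-210 0.67 and let-7i 0.20. With the spike-in control: miR-22 0.38, miR-126* 0.38, miR-29a 0.27, miR-130a 0.24, miR-210 0.48 and let-7i 0.00782. With quantile normalization: miR-21 0.29, miR-22 0.42, miR-126* 0.71, miR-221 0.26 and miR-210 1.46. In the authors' deposited table: miR-21 0.13, miR-22 0.26, miR-126* 0.70, miR-221 0.22, miR-210 1.31 and miR-151* 0.21. Under normexp: miR-196a -0.63, miR-218 -0.63, miR-96 -1.07, miR-135a -1.59, miR-9 -1.82, miR-196c -1.79, miR-183 -1.68, miR-499 -1.63, miR-9* -1.84, miR-672 -1.83, miR-21 0.53, miR-22 0.42, miR-195 -1.05, miR-29a 0.0345, miR-200c -0.68, miR-141 -1.87, miR-30b-5p -0.23, miR-30e -0.24, miR-204 -1.62, miR-196b -0.26, miR-182 -1.87, miR-199a-5p -1.54, miR-322 -1.41, miR-27b -0.0257, miR-99b -1.14, miR-100 -1.57, miR-125a-5p -0.22, miR-99a -0.51, miR-181a -0.77, miR-103 -0.25, miR-29c* -1.61, miR-30a* -0.62, miR-151 -0.19, miR-98 -0.78, miR-34a -1.58, miR-333 -1.86 and miR-327 interaction -0.52. Under normexp without plasma pool 4: miR-96 -0.13, miR-135a -0.66, miR-9 -1.07, miR-196c -0.89, miR-183 -0.81, miR-499 -0.74, miR-9* -1.18, miR-672 -1.06, miR-21 0.22, miR-22 0.24, miR-195 -0.46, miR-29a 0.14, miR-141 -1.06, miR-204 -0.88, miR-182 -1.24, miR-199a-5p -0.80, miR-322 -0.64, miR-99b -0.27, miR-100 -0.72, miR-29c* -0.74, miR-34a -0.77 and miR-333 -1.20. At the highest floor: miR-204 -0.0401, miR-199a-5p -0.00408 and miR-327 interaction -0.93. With swapped letter codes: miR-22 0.18, miR-195 -0.37 and miR-210 0.15 for plasma and miR-141 -0.0737 for kidney. miR-141 was -0.0119 with array weights, and miR-210 0.22 with the brightest probe and 0.0883 with the total signal. With each pool left out, miR-195 ranged from -0.13 to 0.34, miR-126* from -0.43 to 0.14, miR-141 from -0.32 to 0.27 and miR-210 from -0.24 to 0.18. Apart from those values, 150 of the other alternatives' values for 115 named miRNAs no longer passed and 84 newly passed. Normexp adds its offset of 50 before scaling; the reported scaling divided plasma arrays by 0.0870 to 1.54 and kidney arrays by 1.27 to 2.64. The signal of plasma pool 4 limits what can be said of dim plasma miRNAs: its lowest detected scaled signal was 38.2, against 0.164 to 7.37 on the other plasma arrays.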

Other observations

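miR-139-3p followed the position on the slide in all 4 groups of pools; it was singled out after its values were seen. After contrast medium its kidney pools 1 to 4 read 25.7, 9.24, 33.0 and 8.78 and its plasma pools 442, 72.5, 473 and 115. After saline the kidney pools read 38.6, 7.39, 36.6 and 9.07 and the plasma pools 783, 158, 600 and 193. Pools 1 and 3 lay in slide column 2 after contrast medium and column 1 after saline, and pools 2 and 4 in columns 4 and 3. The column difference in the contrast pools was 1.69 on the log2 scale in kidney and 2.32 in plasma, and in the saline pools 2.20 and 1.97. Among the 181 miRNAs, 1 differed between columns by more than 1 in the same direction in both tissues, which was miR-139-3p. Its tissue difference (-3.66 ± 0.70) did not overlap between kidney and plasma.

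RefSeq gene spans held many of the miRNAs. miR-126 and miR-126* lie in the endothelial gene Egfl7, with differences of 1.37 and -0.16. miR-499 lies in Myh7b, miR-25, miR-93 and miR-106b in Mcm7, and miR-142-5p and miR-142-3p in Tspoap1.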
